A study of Homo sapiens with 10 samples.

Results

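The cytochrome P450 genes and the UDP-glucuronosyltransferase genes of the UGT1A and UGT2 families were examined for H3K9me3 in fibroblasts depleted of ERH. Members were the protein-coding genes of GRCh38 whose symbol starts with CYP and a digit, or with UGT1A, UGT2A or UGT2B. The rule found 75 genes, 56 P450 genes and 19 UGT genes, of 20037 protein-coding genes on chromosomes 1 to 22, X and Y. The rule reads symbols only, but the families were picked with earlier results of these data known.

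The study used BJ, a line of human foreskin fibroblasts, and CUT&RUN, in which an antibody-bound nuclease releases the DNA around a chromatin mark for sequencing. H3K9me3, trimethylation of lysine 9 of histone H3, was mapped in 3 siControl samples (non-targeting siRNA) and 3 siERH samples (siRNA against ERH), and SOX2 in 2 control and 2 ERH knockdown samples taken 48 hours after Sendai virus delivery of OCT4, SOX2, KLF4 and c-MYC. Transfection with siRNA was at 5 nM in 2 cycles 3 days apart, and the H3K9me3 samples had no reprogramming factors by their labels. The file analysed here is 1 merged list of H3K9me3 regions for the 3 ERH knockdown samples, so a region shows where the mark was called after knockdown and carries no information on control cells.

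P450 enzymes are heme-containing monooxygenases that oxidise drugs, fatty acids, sterols, steroid hormones and vitamins, and UGT enzymes join glucuronic acid to the products and to bilirubin so that they can be excreted. Many of these genes are most active in liver, gut, adrenal or gonad. Many, but not all, arose by tandem duplication and lie in clusters of similar genes. H3K9me3 is a mark of heterochromatin that is known to keep genes of other lineages silent, and ERH is a small nuclear protein linked to the maintenance of such chromatin.

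Regions overlapped 10 of the 75 genes by at least 1 bp, which is 13.3%, against 10.5% of all protein-coding genes. Among them were CYP17A1, CYP3A7, the read-through gene CYP3A7-CYP3A51P, CYP3A43, CYP46A1, CYP7B1, CYP4F22, UGT1A8 and UGT1A10. The share was close to the background. Some of these genes overlap each other, and with such bodies merged 8 of 65 loci held a region, against 11.5% of merged protein-coding loci. At least 10% of the body was covered in 2 members, CYP17A1 and CYP3A7 (2.67%, against 2.40% of all protein-coding genes). The covered share of the merged gene bodies was 1.10%, or 24.5 kb of 2.24 Mb, and was 1.09% over all protein-coding genes. The other 65 genes held no region. The list pools its samples, so none of these values has an error between replicates and no test was made between knockdown and control. Sequencing depth is unknown, and a region may have been called from a fraction of the cells.

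CYP17A1 was the member with its transcription start inside a region. It encodes the enzyme that carries out the 17-hydroxylase and lyase steps of steroid hormone synthesis in adrenal and gonad. A region of 3076 bp at chr10:102836611-102839686 covered 803 bp at the 5′ end of the gene, which lies on the minus strand at chr10:102830531-102837413, and ran 2273 bp beyond it. It covered 11.7% of the gene body, the largest covered share among the members. Promoter windows, from 250 bases before to 50 after an annotated start, were given by RefSeq for 55 of the 75 genes, and CYP17A1 was the 1 gene of the 55 (1.82%) whose window overlapped a region. Over all protein-coding genes with a window, 26 of 15843 did so, or 0.164%. The count of 1 allows no statement about the members as a group.

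The 250 bases before 4 start sites are printed here from the RefSeq promoter table (GRCh38.p14), 5′ to 3′ along the gene. The first lies wholly in a region, the second is the member window nearest to a region without touching it, and the last pair shows how alike neighbouring genes of a cluster can be. Capitals mark 3 motifs, searched on both strands. They are TATAAA (the core promoter box of that name), AGGTCA (the site recognised by nuclear receptor monomers) and GCGTG (the core bound by the pair of AHR and ARNT). These motifs do not overlap each other in the sequences shown, and GCGTG was found in none of the 4.
CYP17A1, chr10:102837414-102837663, minus strand: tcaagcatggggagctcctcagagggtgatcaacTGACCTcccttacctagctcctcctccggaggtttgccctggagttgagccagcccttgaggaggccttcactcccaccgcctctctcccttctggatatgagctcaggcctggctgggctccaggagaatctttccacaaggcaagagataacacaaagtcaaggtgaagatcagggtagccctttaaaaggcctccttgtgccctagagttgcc
CYP27A1, chr2:218781897-218782146, plus strand: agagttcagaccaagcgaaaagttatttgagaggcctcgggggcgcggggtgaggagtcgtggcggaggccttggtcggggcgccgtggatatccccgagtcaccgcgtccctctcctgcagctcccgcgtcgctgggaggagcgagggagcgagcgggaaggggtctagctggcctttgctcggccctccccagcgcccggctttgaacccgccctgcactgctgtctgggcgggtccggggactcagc
CYP3A7, chr7:99735197-99735446, minus strand: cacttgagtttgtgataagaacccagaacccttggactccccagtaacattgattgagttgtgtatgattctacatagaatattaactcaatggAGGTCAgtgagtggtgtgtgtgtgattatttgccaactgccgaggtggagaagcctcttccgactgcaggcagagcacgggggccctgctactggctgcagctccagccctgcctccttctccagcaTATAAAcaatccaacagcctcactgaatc
CYP3A4, chr7:99784185-99784434, minus strand: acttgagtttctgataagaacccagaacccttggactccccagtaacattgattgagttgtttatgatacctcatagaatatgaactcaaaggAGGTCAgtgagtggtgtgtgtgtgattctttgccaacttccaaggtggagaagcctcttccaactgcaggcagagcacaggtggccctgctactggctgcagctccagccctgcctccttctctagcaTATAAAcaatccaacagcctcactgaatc

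All 250 bases of the CYP17A1 sequence lay in the region. They held 2 CpG dinucleotides and 56.0% G or C, and AGGTCA occurred once, on the opposite strand, starting 216 bases before the start site. The 250 bases before CYP27A1, which encodes the mitochondrial sterol 27-hydroxylase of bile acid synthesis, held 24 CpG dinucleotides and 68.8% G or C. The region nearest to it, at chr2:218775813-218778312, ended 3.58 kb from the window. CYP27A1 and CYP17A1 were the 2 members of 55 with a window within 5 kb of a region (3.64%, against 2.46% over all protein-coding genes). The next windows by distance were those of CYP4F22 at 7.17 kb, CYP2U1 at 9.94 kb and CYP4F11 at 11.2 kb.

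The promoter windows of the members held few CpG dinucleotides. The observed over expected CpG ratio had a median of 0.197 over their 69 windows, against 0.737 over the 22199 windows of all protein-coding genes. TATAAA was present in 34.8% of member windows and 9.47% of all windows, AGGTCA in 29.0% and 11.9%, and GCGTG in 27.5% and 43.0%. A motif was counted anywhere in the window, on either strand. The median share of G or C was 53.0% in member windows and 62.3% in all windows, and the motif shares were not adjusted for it. Windows are not independent, since CYP3A7 and its read-through gene share 1 and CYP19A1 has 7. A match is only a run of letters and shows no binding. The median CpG ratio of the 27 windows, of any gene, that overlapped a region was 0.229, and the CYP17A1 window had 0.129. The 25 other genes with a window in a region included 6 zinc finger, 5 keratin-associated protein, 4 olfactory receptor and 2 clustered protocadherin genes.

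**Figure D1:**
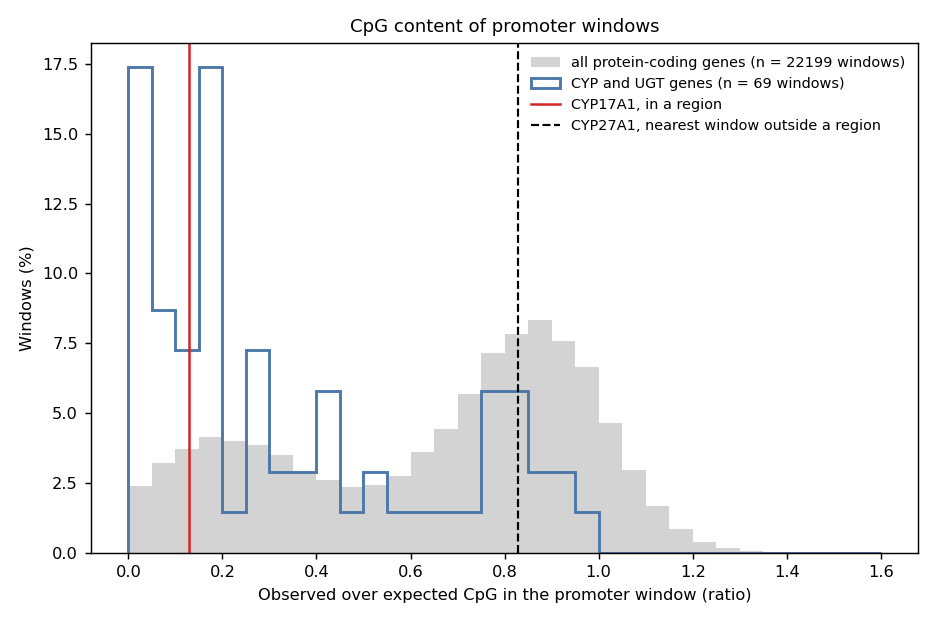
Share of promoter windows (y axis, percent) by observed over expected CpG ratio (x axis) for all protein-coding genes (grey, 22199 windows) and the CYP and UGT genes (blue, 69 windows). Most member windows sit at the low end, where the red line marks CYP17A1 at 0.129, and the dashed line marks CYP27A1 at 0.828.

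Among the P450 genes that act on drugs and other foreign compounds, 3 of 17 held a region, CYP3A7 and CYP3A43 among them. This was 17.6%, against 10.5% of all protein-coding genes. The CYP3A cluster was the most covered of the 10 clusters, with 3.14% of 218 kb in 2 regions. The 500 kb on either side were covered over 1.76%. CYP3A7, the main CYP3A form of fetal liver, was covered over 11.5% by a region of 4045 bp at chr7:99704447-99708491, at the 3′ end of the gene and 26.7 kb from its start. The same region lay inside the read-through gene CYP3A7-CYP3A51P, which shares that start and was covered over 8.01%, and inside ZSCAN25, whose annotated body spans 121090 bp across this locus. CYP3A43, a weakly expressed relative, was covered over 7.34% by a region at chr7:99862838-99865631, which ended 462 bp before the 3′ end. CYP3A4, the main drug-oxidising P450 of adult liver, held no region and lay 48.5 kb from one, and CYP3A5 lay 24.5 kb away. The regions of this cluster thus lay at the 3′ ends of CYP3A7 and CYP3A43, the former also in the interior of CYP3A7-CYP3A51P and ZSCAN25. No promoter window of the 5 genes of the cluster touched a region.

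The sequences printed for CYP3A7 and CYP3A4 were identical at 236 of 251 aligned positions, or 94.0%. In both, TATAAA began 29 bases before the start, and AGGTCA began 156 bases before it in CYP3A7 and 157 in CYP3A4. Among pairs without a shared window, the most alike in any cluster was CYP2A6 and CYP2A7 at 96.0%. The least alike was CYP4F22 and CYP4F3 at 41.1%, and in the CYP3A cluster CYP3A4 and CYP3A5 were at 52.6%. How reads that fit several copies were placed is not given in the sources used here, so the assignment of a region to 1 of several similar genes is uncertain. The identities given here are of promoter sequences only, and the sequences of the regions were not compared.

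**Figure D2:**
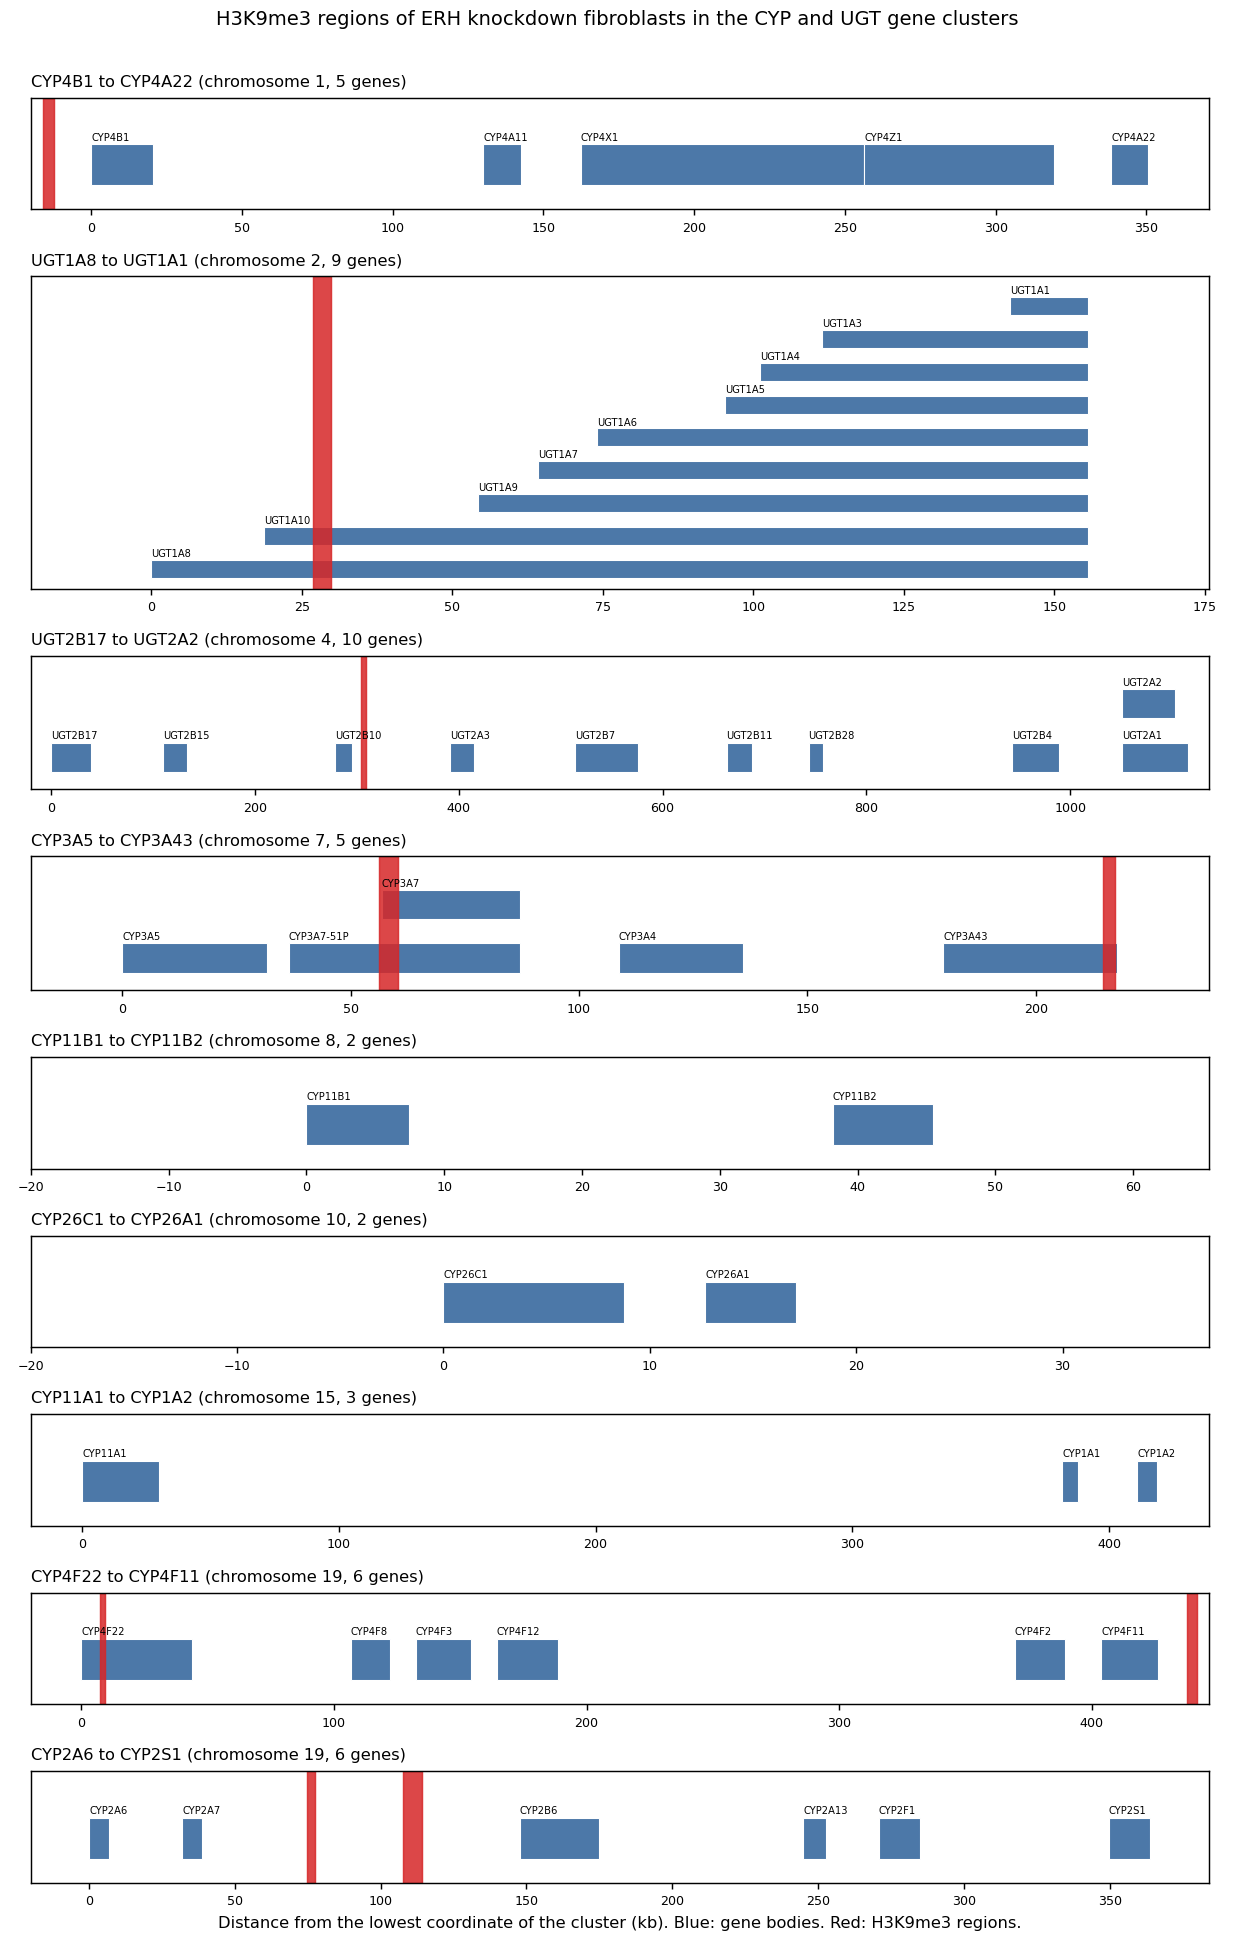
Gene bodies (blue) and H3K9me3 regions (red) in 9 clusters of CYP and UGT genes, as distance in kb from the lowest coordinate of each cluster, with 20 kb shown on both sides. The CYP3A cluster and the cluster from CYP2A6 to CYP2S1 hold 2 regions each, and the overlapping UGT1A bodies are stacked.

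In the cluster from CYP2A6, which oxidises nicotine, to CYP2S1 on chromosome 19, 2 regions covered 2.55% of 364 kb, and both lay in the gap between CYP2A7 and CYP2B6. The longer of them, 6697 bp at chr19:40951041-40957737, was also the longest region in any member or cluster span, with a score at percentile 91.2 of the list. It began 0.381 kb beyond the pseudogene CYP2B7P and 33.5 kb from CYP2B6. CYP1A1 and CYP1A2, the enzymes induced by dioxins and smoke through AHR, lay 349 and 318 kb from a region, and CYP1B1, their relative outside the liver, 50.2 kb. CYP2D6 and CYP2E1 lay 9.83 and 32.7 kb away.

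Of the 7 P450 genes of cholesterol and bile acid metabolism, 2 held a region (28.6%, against 10.5% of all protein-coding genes). The role groups are small, and differences between them were not tested. CYP46A1, the cholesterol 24-hydroxylase of neurons, was covered over 8.17% by a region at chr14:99702052-99705565 in the interior of its body. CYP7B1, an oxysterol 7-hydroxylase and the longest member at 212 kb, was covered over 1.73% by a region at chr8:64729555-64733225. Of all protein-coding genes of 100 kb upward, 35.8% were overlapped. The body of CYP27A1 lay 3.83 kb from the region described beside its promoter window. CYP8B1 and CYP7A1, which act in bile acid synthesis in liver, lay 36.9 and 128 kb away. CYP51A1, a demethylase of cholesterol synthesis that most cells need, lay 52.5 kb away, and CYP39A1 102 kb.

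Besides CYP17A1, the 5 other steroid hormone P450 genes held no region (1 of 6, or 16.7%, against 10.5% of all protein-coding genes). CYP11B2 and CYP11B1, which complete aldosterone and cortisol synthesis, lay 44.8 and 82.9 kb from one. The aromatase gene CYP19A1 lay 145 kb away, CYP21A2 206 kb and CYP11A1, the first enzyme of steroid synthesis, 707 kb. CYP11A1 was the P450 gene farthest from any region, so genes of 1 biosynthetic route ranged from a covered start to the far end of the distances.

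None of the 7 vitamin D and retinoid P450 genes was overlapped, against 10.5% of all protein-coding genes. CYP27C1 was nearest, at 16.5 kb, and the retinoic acid hydroxylases CYP26A1, CYP26B1 and CYP26C1 lay at 46.7, 53.0 and 55.1 kb. CYP27B1, which activates vitamin D, lay at 97.2 kb. CYP2R1 and CYP24A1, which begin its activation and break it down, were far from any region, at 374 and 573 kb.

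Among the 12 fatty acid and eicosanoid P450 genes, CYP4F22 alone held a region (8.33%, against 10.5% of all protein-coding genes). It encodes a skin enzyme that makes very long acylceramides of the water barrier. The region, at chr19:15515741-15517962, was 2222 bp long, covered 5.07% of the body and began 7.22 kb after the start. It also overlapped an annotated pseudogene, LOC100422106. The neighbours CYP4F8, CYP4F3, CYP4F12, CYP4F2 and CYP4F11 lay between 11.4 kb (CYP4F11) and 155 kb (CYP4F12) from a region. In the CYP4 cluster on chromosome 1 no region fell in the span of 351 kb, and CYP4B1 at its edge was 12.4 kb from one. Outside clusters, CYP2U1 lay 10.2 kb, CYP4V2 149 kb and CYP2J2 217 kb away.

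The 7 remaining P450 genes, which fall in none of these roles, included CYP3A7-CYP3A51P with its overlap (14.3%, against 10.5% of all protein-coding genes). The others ranged from CYP2A7 at 36.0 kb to CYP20A1 at 395 kb, with CYP2W1 at 247 kb.

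In the UGT1A locus, 9 genes share their last exons and differ in the first, so their annotated bodies are nested and end at the same base. A single region of 2885 bp at chr2:233644536-233647420 lay within UGT1A8 and UGT1A10, forms expressed in gut, and covered 1.85% and 2.11% of their bodies. It lay 26.9 kb after the UGT1A8 start, ended 24.5 kb before UGT1A9 and was 0.509 kb from the pseudogene UGT1A13P. It was the nearest region for 8 of the 9 genes. UGT1A1, the enzyme that conjugates bilirubin, lay 107 kb from the nearest region. The 2 overlaps are thus 1 observation.

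The UGT2 cluster on chromosome 4, whose enzymes conjugate steroids and bile acids, was the longest. Its 10 genes spread over 1116 kb, of which 1 region covered 0.387%, and no gene was overlapped, against 10.5% of all protein-coding genes. The region, at chr4:68841412-68845727, lay 9.39 kb beyond the 3′ end of UGT2B10 and was the nearest one for all 10 genes. From there the distances went up to 743 kb, at UGT2A1 and UGT2A2. The 500 kb on either side held 1 further region and were covered over 0.333%.

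**Figure D3:**
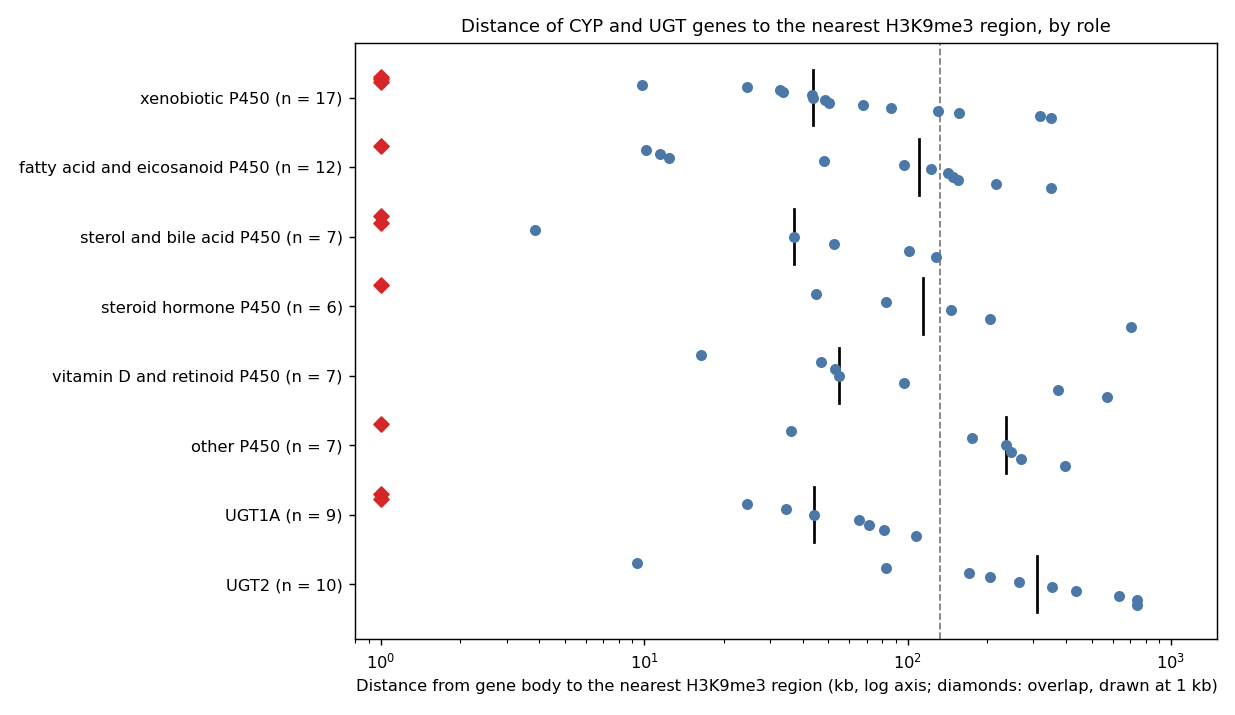
Distance from each of the 75 gene bodies to the nearest H3K9me3 region (x axis, kb, log scale) by role, with red diamonds for the 10 overlapped genes (drawn at 1 kb), black bars for group medians and a dashed line for the median over all protein-coding genes, 132 kb. The sterol and bile acid, xenobiotic and UGT1A medians are 36.9, 43.8 and 44.3 kb, and the UGT2 median is 310 kb. Between them lie vitamin D and retinoid (55.1 kb), fatty acid and eicosanoid (110 kb), steroid hormone (114 kb) and other P450 genes (235 kb). In UGT1A 1 region is nearest for 8 genes, and in UGT2 1 region is nearest for all 10.

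Over all members the median distance to the nearest region was 71.3 kb, with quartiles of 28.6 and 190 kb, against 132 kb with quartiles of 34.7 and 304 kb over all protein-coding genes. The difference was not seen among regions whose score reached the median of the list, where the members had a median of 265 kb and all protein-coding genes 264 kb. With all regions, within 50 kb lay 41.3% of members (30.1% of all genes) and within 100 kb 58.7% (43.2%). Members of a cluster share regions, and the 75 genes had only 39 distinct nearest regions, so these shares do not count independent genes. With overlapping bodies merged into 65 member loci, the median was 82.9 kb, against 128 kb over merged protein-coding loci.

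**Figure D4:**
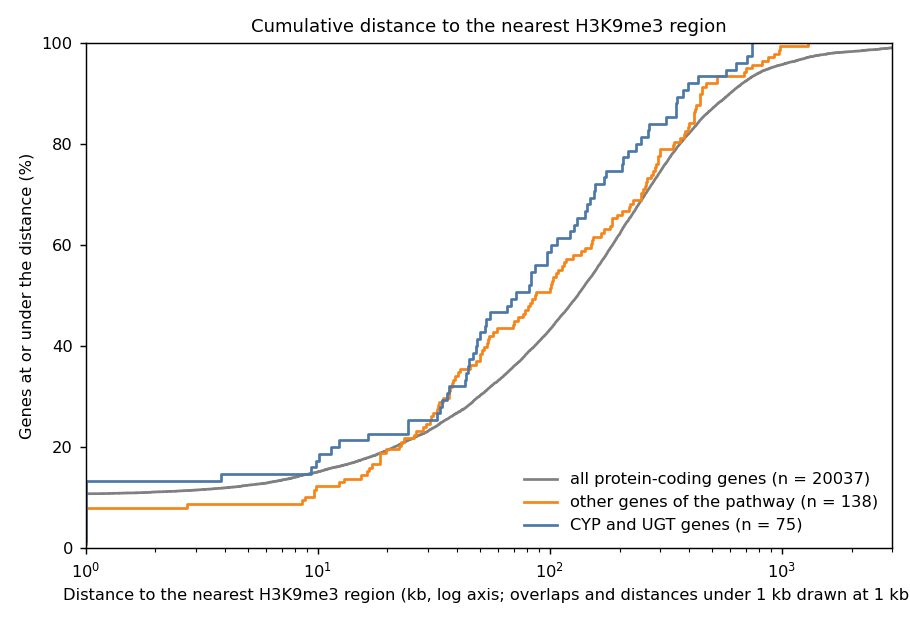
Cumulative share of genes (y axis, percent) by distance to the nearest H3K9me3 region (x axis, kb, log scale, with overlaps and distances under 1 kb at 1 kb) for the 75 CYP and UGT genes, 138 other genes of the pathway and 20037 protein-coding genes. The CYP and UGT curve reaches 41.3% at 50 kb and 58.7% at 100 kb, and that of all genes 30.1% and 43.2%, with all regions used whatever their score.

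Overlap was more frequent in longer genes over all protein-coding genes. The members had the same median length as all protein-coding genes, 24.1 kb. Of protein-coding genes under 10 kb, 0.755% were overlapped, and 1 of 17 such members was (CYP17A1). From 10 to under 30 kb the background was 4.83%, and 0 of 25 members were overlapped. From 30 to under 100 kb it was 10.7%, with 6 of 27 members, and from 100 kb upward 35.8%, with 3 of 6 members. The members in these classes share regions (UGT1A8 with UGT1A10, CYP3A7 with its read-through gene).

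The 10 clusters, formed by joining members at most 500 kb apart, held 52 genes. Of these, 7 were overlapped (13.5%), and of the 23 genes outside clusters 3 were (13.0%), against 10.5% of all protein-coding genes. Some overlapped genes of the clusters share a region (UGT1A8 with UGT1A10, CYP3A7 with its read-through gene). Regions lay in the span of 6 clusters and overlapped members in 4. The clusters of CYP4 genes on chromosome 1, CYP11B, CYP26A1 with CYP26C1, and CYP1A with CYP11A1 held none. No region overlapped any of the 68 CYP and UGT pseudogenes, against 2.69% of all annotated pseudogenes. Zinc finger genes lay within 500 kb of 2 clusters, 8 at CYP3A and 2 at CYP11B.

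The regions themselves were ordinary for the list. The 8 regions in member bodies had a median length of 3295 bp, against 3529 bp over the 10507 regions of these chromosomes. Their scores, deposited by the authors without a unit, ran from 15707 (CYP4F22) to 38984 (CYP3A7), at percentiles 14.0 and 78.2 of the list, with a median of 24526 against 24171. Each member that was overlapped had 1 region. With the 4 regions between members of clusters, the 12 regions reached at most 6697 bp, whereas the list holds 556 of at least 10 kb.

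**Figure D5:**
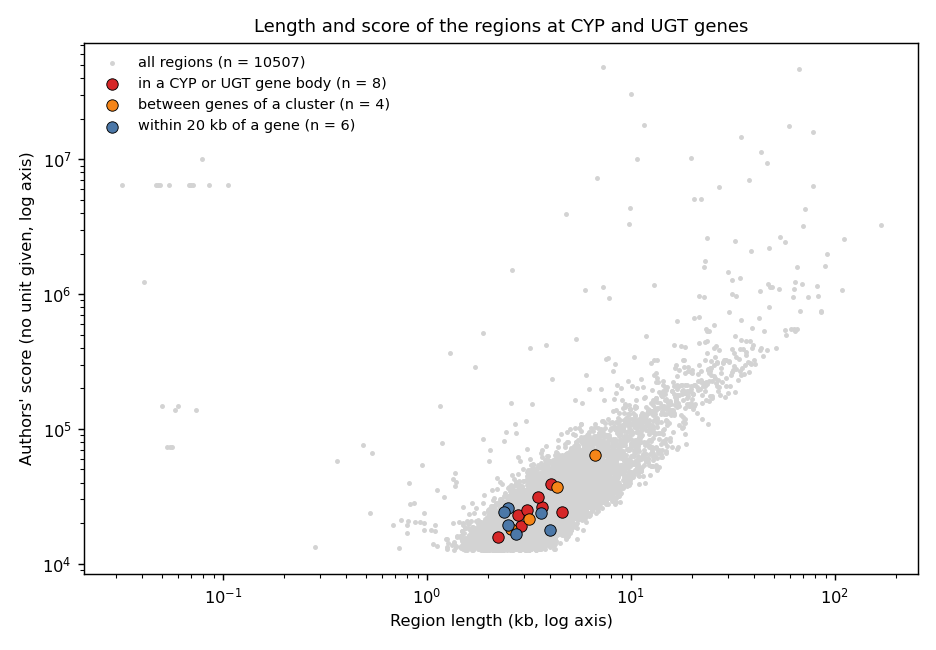
Region length (x axis, kb, log scale) and the authors' score (y axis, no unit given, log scale) of all 10507 regions (grey), with the 8 in CYP or UGT gene bodies (red), 4 between genes of a cluster (orange) and 6 others within 20 kb of a gene (blue). The coloured points lie in the main body of the list, and the highest is the 6697 bp region beside CYP2B7P.

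Other genes of drug and steroid metabolism were described from lists of 138 matched genes. Regions overlapped 10 of them, 7.25%, against the 10.5% of all genes. The transporters had 6 of 27 (22.2%, against 10.5% of all protein-coding genes). The 27 transporters had a median length of 55.4 kb, against 24.1 kb over all protein-coding genes, where overlap was more frequent in longer genes. The largest covered share was that of the ileal bile acid transporter SLC10A2 (19.1% of the body, region chr13:103054199-103058487). SLCO1B3, a hepatic uptake transporter, was covered over 7.09% by 2 regions, and ABCC6 over 4.70%, SLCO1A2 over 3.68%, ABCG2 over 2.86% and ABCC1 over 1.10%. Of 30 other oxidising or hydrolysing enzymes, the alcohol dehydrogenase ADH4 (12.5%) and the retinoic acid-forming ALDH1A2 (5.27%) were overlapped. Of 32 regulators, the receptor genes PPARA (2.16%) and RARB (2.06%) were. None of the 34 other conjugating enzymes, 8 redox partners of P450 enzymes such as POR, and 7 relatives with other symbols held a region, and no promoter window in these lists did.

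The file holds no expression, so the cell type could be compared with its label only through regions. Of 8 fibroblast markers 1 (DCN, 9.25%) was overlapped, and of 8 hepatocyte markers 1 (TF, 3.79%). This is 12.5% of each list, against 10.5% of all protein-coding genes. The median distance to the nearest region was 22.8 kb for the fibroblast and 295 kb for the hepatocyte markers, against 132 kb over all protein-coding genes. With 8 genes in each list, the difference was not tested.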

How the data were processed

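CUT&RUN was performed on BJ fibroblasts for H3K9me3 and SOX2, per the labels' protocols. The submitters' processing notes name Bowtie2 2.3.4.1, SAMtools 1.16.1, R 3.6.3, deepTools 3.5.0, bedtools 2.27.1, SEACR 1.3 and hg38. In the list, 28 rows lie on unplaced, unlocalised or alternate sequences that carry the names of the hg38 assembly, and coordinates were taken as hg38. Whether any were converted from another assembly, the role of each tool, the calling threshold, control libraries and the merging of replicates are not given in the sources used here. The authors deposited 1 list of 10536 regions with a score per region and no unit. A further column, deposited by the authors without a name, holds a piece number that exceeds 1 in 17 rows, none of them at a member.

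Genes came from RefSeq (GRCh38.p14) without exons, and exon or intron positions are not given here. The gene table has no strand, and strand and starts came from the promoter table. Overlap needed 1 bp, distances run from the gene body, and all is descriptive. Clusters join members within 500 kb. Promoter pairs were aligned globally with Biopython 1.88 (match 1, mismatch -1, gap opening -3, gap extension -1). Python 3.11.15, numpy 2.4.6, pandas 2.3.3, scipy 1.17.1 and matplotlib 3.10.9 were used. Covered bases and distances were checked base by base on simulated intervals, with 0 of 500 differing. Members and lists, their roles included, were chosen with earlier results of these data known. Named genes were all overlapped members, the nearest member of each cluster, the nearest and farthest members outside clusters, and overlapped pathway genes. Some other members are given by their distance, and the rest enter only the counts, shares and medians. Of 139 pathway symbols, 138 matched. Results for 1 member are not reported here. The sequences printed, the motifs and the CpG ratio follow the promoter table.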

Additional observations from a re-analysis of the deposited data

How the results depend on the processing

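Of 28 values computed for 5 results under alternatives, 23 stayed within 1.5 times the count or, for the median distance, within its 95% binomial interval, and covered shares were counted as moved at any change. Settings of at least 2 kb, first pieces only and autosomes only could not change the overlap count. The regions in member bodies were at least 2222 bp, none had a piece number above 1, and every member lay on an autosome. Regions between members of a cluster were also longer than 2 kb, with piece number 1. The length and piece settings therefore could not change the covered share or the cluster count either. Joining regions or extending gene bodies could only add overlaps. The count of 23 thus includes values that were fixed in advance. Clusters with a region in the span fell from 6 to 4 with the score cut described next, which was still counted as within 1.5 times. Keeping only regions whose score reached the list's median left 6 overlapped members (6.32% of all genes), with UGT1A8, UGT1A10, CYP3A43 and CYP4F22 lost, a covered share of 0.744% (0.714% over all genes) and a median distance of 265 kb (264 kb). The shorter median distance of the members was thus not seen among these regions, and the cause was not tested. Requiring 10% of the body left 2 members (2.40% of all genes), CYP17A1 and CYP3A7. Counting bodies one by one gave a covered share of 1.06%. The CYP17A1 window stayed in a region under the 4 alternatives tried for it. Its region was 3076 bp long with piece number 1. The settings of at least 2 kb, regions within 5 kb joined and first pieces only therefore could not remove it. Under the score setting it was kept narrowly, with a score of 24844 against a cut of 24180. No paired analysis was possible because the list pools the replicates of 1 group. Depth is unknown, so a gene without a region may carry signal under the calling threshold.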

Other observations

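Of the 17 rows with a piece number above 1, 16 lay on a chromosome other than that of the first piece with the same score. None of them was among the regions in a CYP or UGT gene body, in the span of a cluster or within 20 kb of a member, and which step of the authors' processing made them is not given in the sources used here.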
